A study of Mus musculus with 2 samples.

Results

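Conventional dendritic cells (DCs) were picked from single-cell UMI counts of liver nonparenchymal cells (NPCs) as cells with at least 1 UMI of *Flt3* and further conditions on their own counts, and they numbered 147 of 7919 cells kept. The conditions were at least 2 UMIs summed over *Flt3*, *Cd209a*, *Mycl*, *Clec9a* and *Ccr7*, at least 10 UMIs of *Cd74* plus *H2-Ab1*, at most 5 UMIs of the Kupffer cell genes *Clec4f* plus *Cd5l*, and no UMI of *Cd79a*, *Cd3e* or *Ccr9*. The cells came from male C57BL/6 mice, 8 weeks old at the start, that received either a control diet or the methionine- and choline-deficient (MCD) diet for 6 weeks, the latter as a model of nonalcoholic steatohepatitis (NASH). The 3 mice of each diet were pooled and their cells captured with BD Rhapsody, which tags each transcript by its cell and by its own molecular identifier (UMI), so that there was 1 control and 1 NASH library, with no replicate. No test between diets, subsets or cell classes was therefore made. All intervals are 95% intervals for counting error only, and differences between mice or captures are not covered.

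DCs take up antigen, carry it to lymph nodes and present it to T cells on MHC class I and class II molecules. Conventional DCs arise from precursors that depend on the receptor tyrosine kinase Flt3 and fall into 2 main kinds. Type 1 cells (cDC1), which depend on the transcription factors Irf8 and Batf3 and carry the dead-cell receptor Clec9a, are known for cross-presentation to CD8 T cells and for interleukin 12. Type 2 cells (cDC2), which often carry C-type lectins such as Cd209a, Clec10a and Mgl2 in mice, are known for priming CD4 T cells. Either kind can mature, gain the lymph node homing receptor Ccr7 and the actin-bundling protein fascin (*Fscn1*), and leave the tissue.

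The control library gave 64 such cells of 4209 kept, a share of 1.52% (1.17 to 1.94), and the NASH library 83 of 3710, a share of 2.24% (1.79 to 2.77). These intervals overlap. Median depth was 5387 UMIs per control DC (646 to 11987) and 4773 UMIs per NASH DC (732 to 14117), where all cells kept had medians of 1683 and 1654. Counts of the DCs sum to 374542 and 460711 UMIs. Both libraries share 21 cell labels. Scrublet called 1 DC a doublet, in the control, but it called 0.0809% of the NASH cells in all, so its calls there are not informative and doublets were kept.

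The genes of the rule describe the cells and are no result. *Flt3* had a median of 3 UMIs (1 to 14) in control and 2 UMIs (1 to 11) in NASH cells. *Cd74* plus *H2-Ab1*, parts of MHC class II presentation, had medians of 227 UMIs (10 to 603) and 229 UMIs (14 to 478), so that nearly all cells lay far above the limit of 10. Just inside and outside the limits, 10 cells had exactly 2 UMIs over the DC genes while 8 had 1, and 2 cells had 10 to 19 UMIs of the MHC genes while 10 had 1 to 9. A further 73 cells met every other condition but held a UMI of *Cd79a*, *Cd3e* or *Ccr9*. Among the cells retained, 72 had 1 to 5 UMIs of *Clec4f* plus *Cd5l*.

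Markers of conventional DCs outside the rule were detected in all of these cells or in a part of them. *Cst3*, the cystatin abundant in DCs, and the class II chains *H2-Aa* and *H2-Eb1* were detected in 64 of 64 and 83 of 83 cells. *Cst3* stood at 20155 CPM in control and 22850 CPM in NASH DCs, where CPM is UMIs of the gene per 1000000 UMIs summed over the cells of a library. The 2 class II chains belong to the same presentation genes as *Cd74* and *H2-Ab1*, which the rule required, so their detection adds little. *Irf8* was at 2483 and 2151 CPM, in 37 and 60 cells. *Ciita* was in 61 control and 68 NASH cells, *Batf3* in 23 and 41, *Cadm1* in 28 and 39, and *Clec10a* in 15 and 19. Of 12 plasmacytoid DC genes 9 were detected in each library. Their sum was 1041 CPM in control (0 to 20571 over cells) and 606 CPM in NASH DCs (0 to 4856). *Cox6a2* of this list had 0 UMIs in the 147 cells, *Ccr9* was at 0 by the rule, and *Pax5* of B cells was likewise at 0. 2 cells, 1 per library, had 3 or more UMIs over *Klk1*, *Ly6d*, *Pacsin1* and *Atp1b1*, which belong to the plasmacytoid list.

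Markers of other cells were detected too, at levels that differed between lists and between cells. The summed list of endothelial markers stood at 2139 CPM in control (0 to 25806 over cells) and 2520 CPM in NASH DCs (0 to 18338), with all 14 genes detected. The macrophage list was at 785 and 1137 CPM (11 of 11 genes, *Clec4f* and *Cd5l* limited by the rule). The B cell list was at 1530 and 540 CPM (7 and 9 of 12 genes, *Cd79a* at 0 by the rule). The T and NK cell list was at 286 and 443 CPM (5 and 7 of 13, *Cd3e* at 0 by the rule). The monocyte list summed to 5711 CPM (151 to 74396) and 3785 CPM (0 to 28899), all 11 genes detected. *Dnase1l3* gave 340 of the 801 control and 325 of the 1161 NASH UMIs of the endothelial list. *Ccr2* gave 717 of the 2139 control and 753 of the 1744 NASH UMIs of the monocyte list. Whether the DCs made these transcripts themselves was not tested. Of the 135 control UMIs of *Ly6c2*, the inflammatory monocyte surface gene, 83 were in 1 cell. The part of such RNA in the results was not tested.

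*Clec9a* and *Cd209a* split the DCs. In the control, 29 of 64 cells (45.3%, 32.8 to 58.3) had *Clec9a* only, 19 (29.7%, 18.9 to 42.4) had *Cd209a* only, 8 had both and 8 had neither. The NASH library gave 35 of 83 cells (42.2%, 31.4 to 53.5) with *Clec9a* only, 29 (34.9%, 24.8 to 46.2) with *Cd209a* only, 2 with both and 17 with neither. The shares of both subsets overlapped between diets within counting error. Detection depended on depth: with each cell thinned to 1000 UMIs, which leaves out 2 cells per library, the *Clec9a*-only share was 37.1% of control and 18.5% of NASH cells, and the *Cd209a*-only share 27.4% and 27.2%. The *Clec9a* cells were also deeper, with median totals of 7361 and 6355 UMIs against 4547 and 4288 in the *Cd209a* cells.

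A single *Clec9a* UMI marks a cell less firmly than a *Cd209a* UMI. *Clec9a* was found in 11.8% of control and 12.6% of NASH endothelial cells (median depths 1751 and 1472 UMIs) and in 24.3% and 20.7% of Kupffer cells (6183 and 4946 UMIs), but in 0.755% and 0.872% of T cells, while *Cd209a* was in 0.227% and 0.171% of endothelial cells. *Clec9a* (GRCm38 chromosome 6, 129408862 to 129424763, plus strand) overlaps the end of *Clec1b* (129397297 to 129409335, same strand) by 474 bases. *Clec1b*, a lectin receptor gene of liver endothelium and Kupffer cells, was at 483 and 388 CPM in the endothelial cells and 813 and 703 CPM in the Kupffer cells, and at 13.3 and 19.5 CPM in the DCs. Whether reads of the shared stretch account for these *Clec9a* counts was not tested. Among the *Clec9a*-only DCs, 24 of 29 and 27 of 35 had 2 or more UMIs (medians 6 and 4), whereas 9 of the 10 cells with both genes had 1 *Clec9a* UMI. Plasmacytoid DCs carried the selection genes too, with *Clec9a* at 861 and 522 CPM and *Cd209a* at 483 and 420 CPM, so neither gene alone sets conventional DCs apart from them.

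The promoters of the genes that make the split, and of a leading gene on either side, *Irf8* and *Mgl2*, are given as the RefSeq sequence of build GRCm38.p6, from 250 bases before to 50 bases after the start site, 5′ to 3′ in the direction of the gene. They are chr6:129408612-129408911 on the plus strand for *Clec9a*, which lies wholly within the *Clec1b* gene, chr8:120736108-120736407 on the plus strand for *Irf8*, chr8:3748935-3749234 on the minus strand for *Cd209a*, and chr11:70130107-70130406 on the plus strand for *Mgl2*. Capitals mark a match to any of 4 motifs searched on both strands: TGANTCA (AP-1), GAAANNGAA (interferon response), GGAANNGAA (ETS-IRF composite) and GAGGAAGT (PU.1).
Clec9a: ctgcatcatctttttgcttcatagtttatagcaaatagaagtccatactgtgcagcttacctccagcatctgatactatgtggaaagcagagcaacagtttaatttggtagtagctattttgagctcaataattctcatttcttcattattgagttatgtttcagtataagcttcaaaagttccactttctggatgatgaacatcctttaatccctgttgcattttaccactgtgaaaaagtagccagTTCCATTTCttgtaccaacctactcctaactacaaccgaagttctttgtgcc
Irf8: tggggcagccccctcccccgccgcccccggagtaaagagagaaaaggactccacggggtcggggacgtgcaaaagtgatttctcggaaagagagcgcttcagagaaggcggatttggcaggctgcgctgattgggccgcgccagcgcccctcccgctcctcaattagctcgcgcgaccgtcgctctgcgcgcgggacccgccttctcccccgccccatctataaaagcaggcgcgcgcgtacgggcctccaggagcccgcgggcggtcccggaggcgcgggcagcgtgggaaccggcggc
Cd209a: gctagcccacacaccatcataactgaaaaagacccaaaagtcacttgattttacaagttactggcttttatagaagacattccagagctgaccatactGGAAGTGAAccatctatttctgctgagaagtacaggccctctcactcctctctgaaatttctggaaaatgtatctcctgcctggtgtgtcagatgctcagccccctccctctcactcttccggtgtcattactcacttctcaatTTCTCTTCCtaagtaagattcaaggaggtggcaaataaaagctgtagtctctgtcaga
Mgl2: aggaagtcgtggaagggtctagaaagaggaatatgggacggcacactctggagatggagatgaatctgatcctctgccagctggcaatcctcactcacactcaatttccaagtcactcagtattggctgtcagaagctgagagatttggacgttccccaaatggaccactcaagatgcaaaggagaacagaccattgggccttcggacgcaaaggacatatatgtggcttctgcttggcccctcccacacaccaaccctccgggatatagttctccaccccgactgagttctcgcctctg
The *Clec9a* window holds 1 interferon response match across the start site and the *Cd209a* window 2 ETS-IRF composites, 152 and 8 bases before the start, while *Irf8* and *Mgl2* hold none of the 4 motifs. These letters are common, in 8.57% and 8.25% of all 27025 promoters of the table, and with a further A at the end of the motif only the *Cd209a* match nearest the start remains of the 3. Of the cDC1 genes called higher below, 13 have a promoter in the table, of which 3 (*Clnk*, *Btla* and *Cxcr3*) hold the PU.1 letters, against 3.28% of all promoters, 3 (*Ifi205*, *Ppt1* and *Btla*) the interferon response letters, 2 (*Gpr33* and *Cxcr3*) the composite and 0 AP-1. Of 7 cDC2 genes called lower, 1 (*Clec4a2*) holds AP-1, against 7.93%, and 0 hold any of the other 3 motifs. A match is not a bound site, and the interferon response and composite searches can overlap.

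The 64 cells with *Clec9a* only (*Clec9a*+) were set against the 48 with *Cd209a* only (*Cd209a*+), cells with both or neither left out. A gene was measured where both sums together reached 20 UMIs, and was called where the log2 ratio of CPM, with 0.5 UMI added to each sum, passed 2-fold with a counting interval that excluded 0. Of 4511 genes measured, 704 (15.6%) were called, 309 (6.85%) higher and 395 (8.76%) lower in the *Clec9a*+ cells, with a median log2 ratio of -0.01. Taken alone, the control library gave 16.7% called (7.34% higher and 9.39% lower) and the NASH library 16.6% (7.57% and 9%). Of 2551 genes measured in both libraries, 91 (3.57%) were called higher in both, 127 (4.98%) lower in both and 6 (0.235%) in opposite directions.

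All 16 measured cDC1 genes were called higher in the *Clec9a*+ cells, with a median log2 ratio of 3.74. *Irf8*, the cDC1 lineage factor, was at 4367 CPM in control and 3623 CPM in NASH *Clec9a*+ cells against 158 and 228 CPM in the *Cd209a*+ cells (log2 4.29, 3.88 to 4.77). The cells of both subsets overlapped: in UMIs per 10000 UMIs of the cell, *Irf8* had a median of 42.6 (4.05 to 86.8) in control and 39.3 (0 to 67.5) in NASH *Clec9a*+ cells, and of 0 (0 to 80.0) and 1.52 (0 to 20.3) in the *Cd209a*+ cells, where a single control cell gave the value of 80.0. That cell had 875 UMIs, with 7 of *Irf8*, 1 of *Cd209a* and 10 of *Cd74* plus *H2-Ab1*. It also had the highest sum of the plasmacytoid list among the control *Cd209a*+ cells, at 20571 CPM. *Naaa*, a lysosomal amidase, stood at 3362 and 2462 CPM against 283 and 403 CPM (log2 3.01, 2.69 to 3.37). *Ppt1*, a lysosomal thioesterase, was at 2516 and 1646 CPM against 124 and 129 CPM (log2 3.98).

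The adhesion molecule gene *Cadm1* (log2 2.89), the sialoglycoprotein gene *Cd24a* (4.28), the integrin gene *Itgae*, whose product is CD103 (3.90), and the chemokine receptor gene *Cxcr3* (3.57) followed the same direction in both libraries. The antigen uptake receptor gene *Ly75*, whose product is DEC-205, was at 197 and 172 CPM in the *Clec9a*+ cells and had 0 UMIs in the *Cd209a*+ cells, which with 3 UMIs as the floor of a 0 makes it at least 3.75 higher on the log2 scale. *Gcsam* likewise had 114 UMIs in 37 *Clec9a*+ cells and 0 in the others (bound 4.22). *Batf3*, the partner factor of cDC1 development, differed less, at 123 and 201 CPM against 56.6 and 60.9 CPM (log2 1.44, 0.62 to 2.46). *Id2*, which DCs of either kind express, was at 4943 and 5819 CPM against 1743 and 1279 CPM (log2 1.89).

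**Figure D1:**
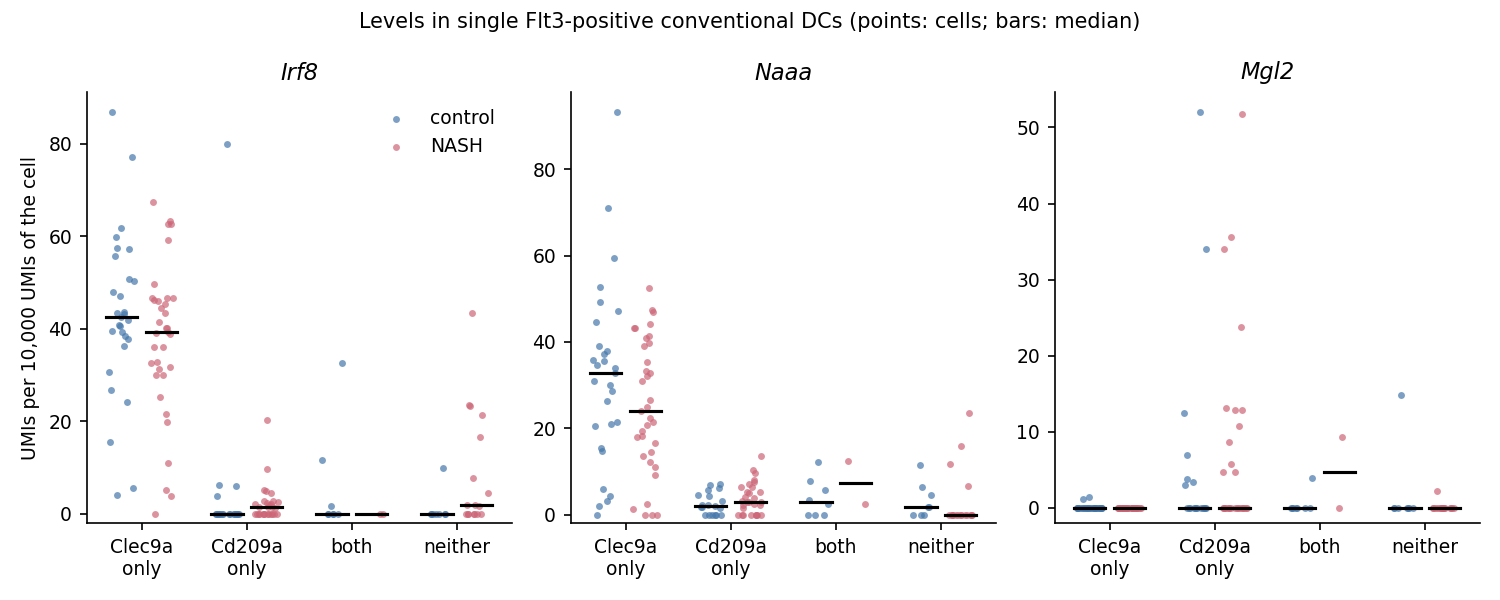
UMIs of *Irf8*, *Naaa* and *Mgl2* per 10000 UMIs of the cell (vertical axes, from 0) in single DCs, grouped by the UMIs of *Clec9a* and *Cd209a* (horizontal axes). Each point is 1 cell, blue from the control and red from the NASH library, and bars are medians. *Irf8* medians are 42.6 and 39.3 in the *Clec9a*-only cells and 0 and 1.52 in the *Cd209a*-only cells, and *Mgl2* was found in 7 of 19 and 12 of 29 *Cd209a*-only cells.

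Of 12 measured cDC2 genes 9 were called lower in the *Clec9a*+ than in the *Cd209a*+ cells and none higher, with a median of -2.81. *Clec10a*, a galactose-type lectin gene, had 0 UMIs in the *Clec9a*+ cells and 294 and 373 CPM in the *Cd209a*+ cells, a bound of -5.67 on the log2 scale. *Mgl2*, its close paralog, was at 9.85 and 0 CPM against 532 and 708 CPM (log2 -6.84), and reads of such a pair could be split between them by the counting. *Mgl2* was found in 7 of 19 and 12 of 29 *Cd209a*+ cells and *Clec10a* in 10 and 13, so these lectins marked a portion of the *Cd209a*+ cells only. *Irf4*, the factor tied to cDC2, had 3 UMIs against 27 (log2 -4.00, -6.56 to -2.49), and *Klf4*, which some cDC2 require, was at 281 and 217 CPM against 973 and 1005 CPM (log2 -2.01).

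*Csf1r*, the receptor of macrophage colony-stimulating factor, was at 88.6 and 115 CPM in the *Clec9a*+ and 566 and 852 CPM in the *Cd209a*+ cells (log2 -2.83). The fractalkine receptor gene *Cx3cr1* was at 14.8 and 8.21 CPM against 226 and 419 CPM (log2 -4.80), and the integrin gene *Itgam* had a log2 ratio of -4.23. *Ccr2*, the receptor that brings monocytes out of the marrow, was at 1630 and 1494 CPM against 1992 and 2222 CPM and was not called (log2 -0.45). The monocyte marker list, *Ccr2* included, summed to 2939 and 2520 CPM in the *Clec9a*+ and to 5692 and 5936 CPM in the *Cd209a*+ cells. In the *Clec9a*+ cells 4 of its 6 measured genes were lower (among them *Csf3r*, *Ms4a6c* and *Ly6c2*). *F13a1* and *Fn1* were at 0 in the *Clec9a*+ cells of both libraries, *Chil3* also in control and *Csf3r* in NASH. In the *Cd209a*+ cells *Chil3* and *Cd14* were at 0 in control and *Hp* in NASH. Over all control DCs 23 of 28 *Csf3r* UMIs were in 1 cell. The neutrophil list, *Csf3r* included, summed to 19.7 and 4.10 CPM in the *Clec9a*+ cells. In the *Cd209a*+ cells it summed to 611 CPM (0 to 7512 over cells) and 68.5 CPM (0 to 316). The part of these lists in the contrast was not tested.

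**Figure D2:**
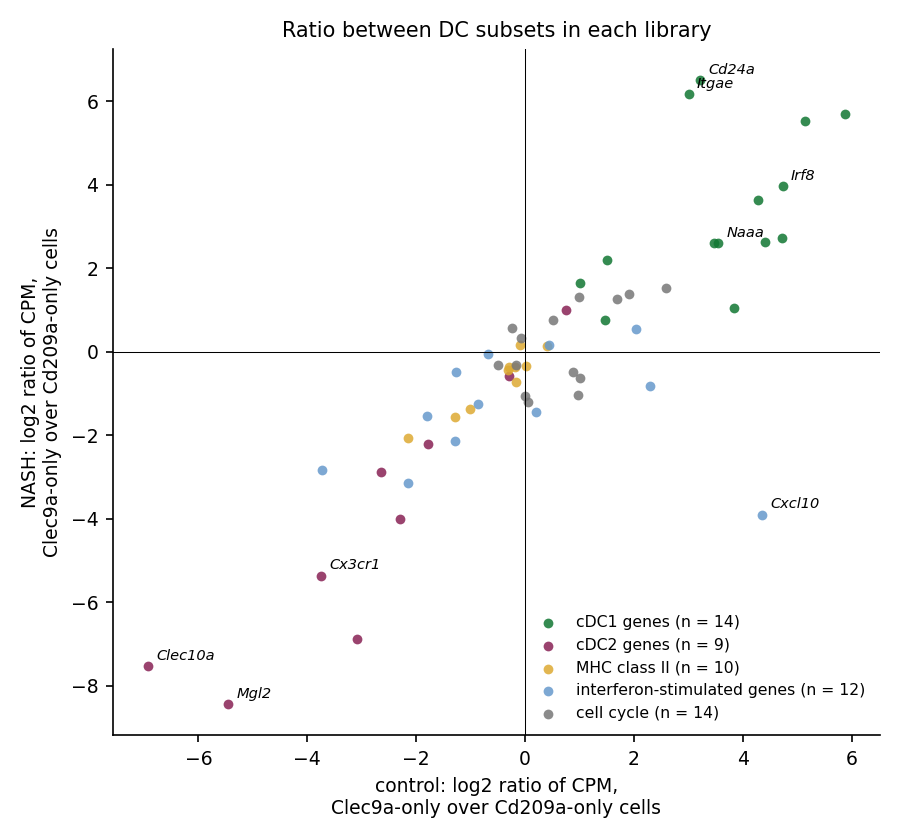
Log2 ratio of CPM between *Clec9a*-only and *Cd209a*-only DCs in control (horizontal) and NASH (vertical), 1 point per listed gene with at least 20 UMIs in both libraries, coloured by gene list. The 14 cDC1 genes lie above 0 in both libraries, *Clec10a* and *Mgl2* lie lowest, and *Cxcl10* is at 4.35 (control) and -3.90 (NASH).

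The genes called with the largest ratios in both directions outside these lists were mostly silent on one side. *Rab7b*, a small GTPase gene of endosomes, had 381 UMIs in 55 *Clec9a*+ cells and 1 UMI in the *Cd209a*+ cells (log2 6.97, 5.06 to 12.86). *A530099J19Rik* had 235 UMIs in 42 cells against 0 (bound 5.27), and the Wnt receptor gene *Fzd1* 85 UMIs in 34 cells against 0 (bound 3.80). The other high ratios came from few cells, with *Apol7c* in 4, *Il12b* in 3 and *Cacnb3* in 4 *Clec9a*+ cells. In the *Cd209a*+ cells the metalloelastase gene *Mmp12* and the urokinase receptor gene *Plaur* had 20 UMIs each against 0 (bounds of -3.76). *Klra17*, a killer lectin-like receptor gene, had 46 UMIs in 20 cells against 1. *Cd33* had 46 UMIs against 3, and *Alox5*, the first enzyme of leukotriene synthesis, 27 UMIs against 1. Over all control DCs 12 of 21 *Alox5* UMIs were in 1 cell.

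Uptake receptors divided the subsets. Of 15 measured genes for lectins and uptake receptors 10 were lower and 2 higher in the *Clec9a*+ cells, the higher being *Ly75* and *Cd36*. *Cd36*, a scavenger receptor for lipids and apoptotic cells, was at 615 and 771 CPM against 22.6 and 76.1 CPM (log2 3.62, 2.86 to 4.65). The Fc receptor genes lay on the *Cd209a* side: *Fcer1g*, the shared gamma chain, was at 330 and 398 CPM against 2263 and 2664 CPM (log2 -2.77), *Fcgr3* had 1 UMI against 23 (log2 -4.99), and *Fcgr4* had a ratio of -2.45.

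MHC class II genes mostly stayed within 2-fold. Of 11 measured genes 1 was called higher and 3 lower in the *Clec9a*+ cells (median -0.35). *H2-Aa* was at 13081 and 15002 CPM against 16103 and 19262 CPM (log2 -0.35, -0.41 to -0.29) and *H2-Eb1* had a ratio of -0.30 (-0.37 to -0.23), and neither passed 2-fold. The class II regulator gene *Ciita* was at -0.15 (-0.39 to 0.10). The proteases on the *Cd209a* side were *Ctss*, which cleaves the invariant chain (1625 and 1403 CPM against 3983 and 4163 CPM, log2 -1.44), and *Lgmn* (log2 -2.15), and the peptide exchange gene *H2-DMb2* was at -1.16. *H2-Eb2* was the gene called higher (log2 2.96), with a ratio of -0.06 in control and 5.22 in NASH cells. Most *H2-Eb2* UMIs of the DCs lay in the few cells with *Ccr7*, described below, and their part was not tested. Of 19 genes of MHC class I and cross-presentation, the immunoproteasome subunit gene *Psmb9* (log2 1.72, 1.28 to 2.21) and *H2-Q6* (1.28) were higher. *Cybb*, the NADPH oxidase subunit that limits degradation in phagosomes, was lower at 172 and 90.3 CPM against 1505 and 1773 CPM (log2 -3.70).

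Among secreted factors, the macrophage chemokine genes *Ccl6* (98.5 and 140 CPM against 747 and 647 CPM, log2 -2.50) and *Ccl9* (29.5 and 32.8 CPM against 441 and 616 CPM, log2 -4.08) were lower in the *Clec9a*+ cells. *Il1b*, interleukin 1 beta, was at 153 and 193 CPM against 702 and 746 CPM (log2 -2.06, -2.47 to -1.66). *Ccl22* (log2 5.43) and *Ccl5* (3.99) were higher, in 10 and 5 *Clec9a*+ cells. Without the cell with the most *Ccl5* UMIs in each subset and library, *Ccl5* had a ratio of 1.98.

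Of 17 measured interferon-stimulated genes 9 were lower and 1 higher in the *Clec9a*+ cells (median -1.06). The control library alone gave 5 lower and 3 higher of 12, and the NASH library 7 lower and none higher of 14. *Ifitm3*, which blocks viral entry, was at 566 and 250 CPM against 2512 and 2245 CPM (log2 -2.58), and *Oasl2* was at 29.5 and 32.8 CPM against 419 and 244 CPM (log2 -3.28). Of 21 immediate early and stress genes 9 were lower and none higher (median -0.82), among them *Atf3* at 153 and 69.8 CPM against 645 and 479 CPM (log2 -2.34) and *Egr1* at -1.73. These genes are known to respond to tissue digestion, and the part of the preparation was not tested.

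Of 25 cell cycle genes 10 were higher and none lower in the *Clec9a*+ cells (median 0.76). Taken alone, the control library gave 4 of 15 higher and none lower and the NASH library 9 of 23 higher and 3 lower. *Ccna2*, cyclin A, was at 64.0 and 234 CPM against 0 and 60.9 CPM (log2 2.03) and *Nusap1* at 2.06. *Mki67*, chosen after its values were seen, was found in 8 of 29 and 12 of 35 *Clec9a*+ and in 4 of 19 and 8 of 29 *Cd209a*+ cells (log2 1.40). The direction of *Mki67* turned when only cells free of *Clec4f* and *Cd5l* UMIs were used (log2 -0.77), and the cause was not tested. In the lipid and lysosome list, *Psap*, the precursor of saposins, was at 16872 and 13398 CPM against 6122 and 6081 CPM (log2 1.30).

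A small group of DCs carried *Ccr7*, 5 of 64 cells in the control (7.81%, 2.59 to 17.3) and 13 of 83 in the NASH library (15.7%, 8.61 to 25.3). The intervals overlap, *Ccr7* belongs to the rule, and the comparison of these 18 cells with the other 129 was added after the values were seen. They were *Clec9a*+ in 2 and 3 cells, *Cd209a*+ in 1 and 1, and had neither gene in 2 and 9. Of 4952 genes measured 1154 (23.3%) were called, 395 (7.98%) higher and 759 (15.3%) lower, with a median log2 ratio of -0.35. Of 28 genes of mature DCs 24 were higher and 1 lower, with a median of 3.80.

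*Fscn1* had 184 UMIs in 9 of the 18 *Ccr7*+ cells and 36 UMIs in 9 of the 129 others (log2 5.37, 4.86 to 5.94). *Ccl22*, a chemokine for regulatory T cells, had 146 UMIs in 15 cells against 47 in 9 (log2 4.66), and *Ccl5* 424 UMIs in 13 cells against 54 in 10 (log2 5.99). The calcium channel subunit gene *Cacnb3* was at 119 UMIs in 14 cells against 4 UMIs in 1 cell (log2 7.76), and *Mreg* had a ratio of 6.20. *Il12b*, the p40 chain of interleukins 12 and 23, had 167 UMIs in 6 *Ccr7*+ cells and none elsewhere among the DCs. Among surface molecule genes picked after their values were seen, *Cd83* was at 3.81, *Cd200* at 5.30, *Cd40* at 3.14, *Icosl* at 2.60 and *Cd274*, the gene of PD-L1, at 5.50 (52 UMIs in 17 cells against 9 in 6), whereas *Cd86* was at 253 and 216 CPM and was not called (log2 0.25).

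Other genes were low in the *Ccr7*+ cells. All but 2 of 25 cell cycle genes were called lower, with *Mki67* at 9 UMIs in 2 cells against 425 in 37 (log2 -2.45). The tissue homing receptor gene *Ccr2* had 3 UMIs against 1467 (log2 -5.68) and *Naaa* a ratio of -6.13. *H2-Aa* (16409 and 15149 CPM) and *H2-Eb1* stayed within 2-fold, with ratios of 0.12 and 0.26. The peptide loading genes *H2-DMa* (242 and 959 CPM, log2 -1.96) and *H2-DMb1* (-1.56) were lower, and *H2-Eb2* was higher with 92 UMIs in 17 cells against 13 in 7 (log2 5.81).

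Over all DCs, the NASH cells were set against the control cells. Of 4952 genes measured 283 (5.71%) were called, 152 (3.07%) higher and 131 (2.65%) lower in the NASH cells. In the *Clec9a*+ cells 7.99% of 3542 genes were called, 177 (5%) higher and 106 (2.99%) lower, and in the *Cd209a*+ cells 6.09% of 2185 genes, 67 (3.07%) higher and 66 (3.02%) lower. Of 2074 genes measured in both subsets 9 (0.434%) were higher in both, namely *Ap1s2*, *Aqp1*, *Birc5*, *C1qb*, *Cox14*, *F11r*, *H2afv*, *Ifi27l2a* and *Mki67*, and 3 (0.145%) were lower in both, *Cyp51*, *Igha* and *Igkc*, while 4 (0.193%) were called in opposite directions. *Aqp1* and *C1qb* belong to the endothelial and macrophage marker lists, whose sums over the DCs went from 2139 to 2520 CPM and from 785 to 1137 CPM. In the *Clec9a*+ cells these sums went from 1841 to 2774 CPM and from 546 to 997 CPM, with 6 of 9 measured endothelial markers (median log2 1.89) and 2 of 3 macrophage markers called higher and none lower, and in the *Cd209a*+ cells from 1663 to 2116 CPM and from 679 to 1043 CPM. Their part in these calls was not tested.

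Genes of mitosis were higher in the NASH cells. Of 25 cell cycle genes 11 were called higher and none lower (median 0.84), and in the *Clec9a*+ cells 14 of 24 were higher and 3 lower (median 1.21). *Ccnb1*, cyclin B1, had 5 UMIs in 2 control cells and 33 UMIs in 10 NASH cells (log2 2.31, 1.06 to 4.14), and *Ccnb2* 15 UMIs in 5 cells and 67 in 14 (log2 1.82). *Cdk1*, the kinase they activate, was at 48.1 and 169 CPM (log2 1.79, 1.06 to 2.64) and *Nusap1* was called as well. Of genes chosen after their values were seen, *Mki67* was at 307 CPM in 16 control cells and 692 CPM in 23 NASH cells (log2 1.17, 0.86 to 1.49), and *Birc5*, survivin, at 90.8 and 250 CPM (log2 1.44).

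*Mki67* was found in 16 of 64 control and 23 of 83 NASH DCs. With each cell given equal weight its ratio was 0.81 and no longer past 2-fold. Over all other cells of the libraries *Mki67* had a ratio of -1.10 and *Birc5* of -0.18. Of the genes of the licensing complex for DNA replication, *Mcm4* (133 and 49.2 CPM, log2 -1.40), *Mcm5* (231 and 78.0 CPM, log2 -1.55) and *Mcm6* (236 and 94.4 CPM, log2 -1.31) were the 3 cell cycle genes called lower in the *Clec9a*+ cells, while *Mcm2* (log2 -0.69), *Mcm3* (-0.92) and *Mcm7* (-0.67) were not called. In the *Cd209a*+ cells *Mcm4*, *Mcm5* and *Mcm6* had ratios of -0.14, 0.46 and 0.32 and none was called.

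**Figure D3:**
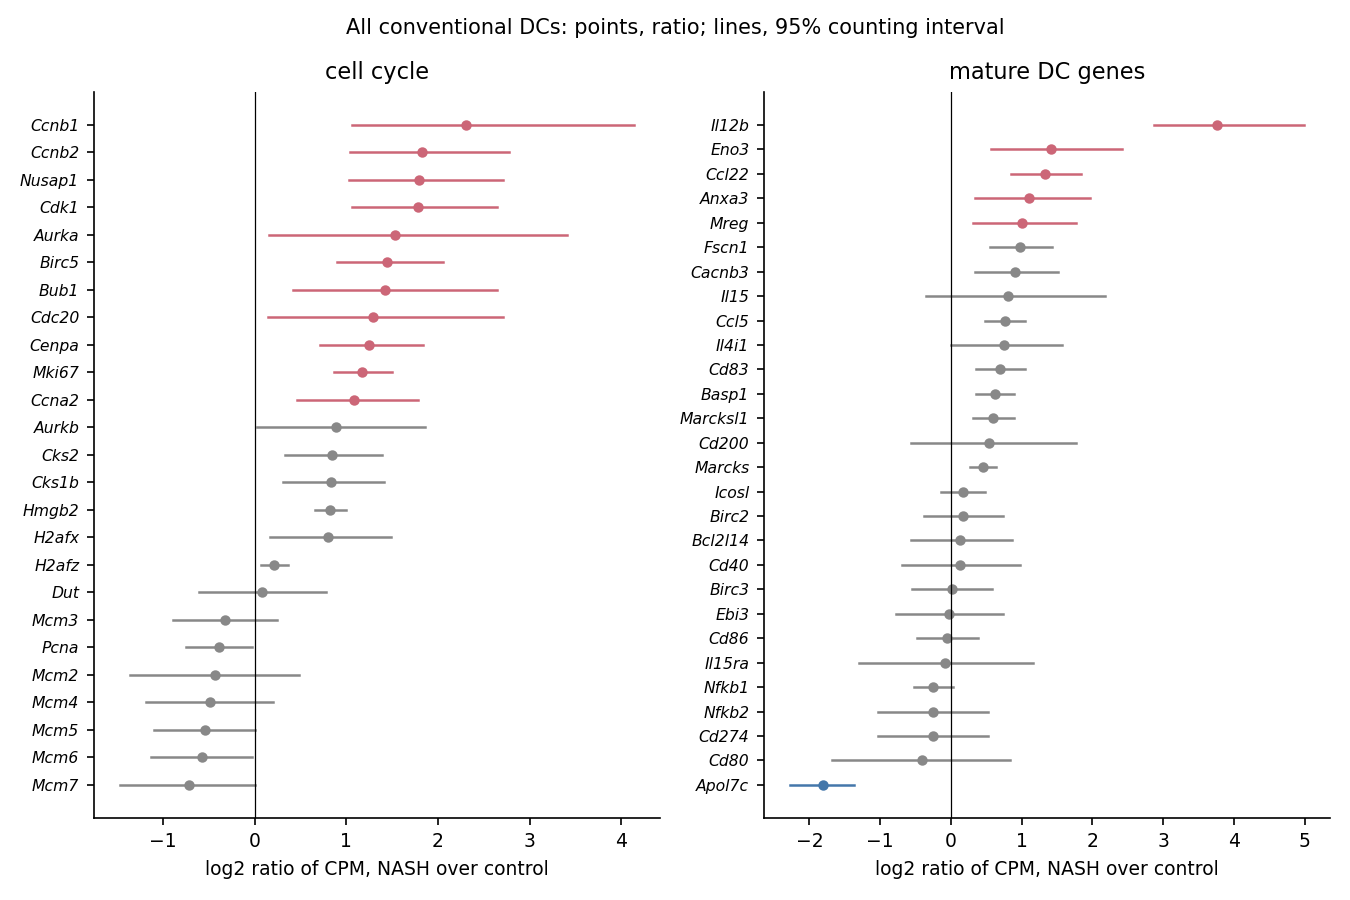
Log2 ratio of CPM, NASH over control, over all DCs for the measured cell cycle genes (left) and mature DC genes (right), with 95% counting intervals as lines. Red marks genes called higher, blue genes called lower and grey genes not called, with *Ccnb1* at 2.31 and *Il12b* at 3.76 at the top and *Apol7c* at -1.80 at the bottom.

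Of 28 mature DC genes 5 were higher and 1 lower in the NASH cells (median 0.49), which also held more *Ccr7*+ cells, 13 against 5, and their part was not tested. *Il12b* had 9 UMIs in 1 control cell and 158 UMIs in 5 NASH cells (log2 3.76, 2.87 to 4.99), so its control value rests on that cell. *Ccl22* was at 125 CPM in 6 cells and 317 CPM in 18 cells (log2 1.33, 0.85 to 1.84), and had a ratio of 2.26 without the *Ccr7*+ cells and 2.41 without the cell of each library with the most UMIs. *Fscn1* was at 171 CPM in 7 cells and 339 CPM in 11 cells and was not called (log2 0.98), and its direction turned without the *Ccr7*+ cells (log2 -3.02). That turn rests largely on 1 control cell, which held 25 *Fscn1* UMIs and none of *Ccr7*. The gene called lower was *Apol7c*, an apolipoprotein L gene, with 160 UMIs in 6 control and 56 UMIs in 5 NASH cells (log2 -1.80). Outside the *Ccr7*+ cells it had 76 UMIs in 3 control cells and 0 in the NASH cells, a fitted ratio of -7.43 that depends on the 0.5 UMI added.

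Between diets, few identity genes of either subset were called, and the same holds for all genes measured, of which 5.71% were called. Of 17 cDC1 genes none was higher and 1 lower, *Itgae* at 288 and 143 CPM (log2 -1.005, -1.47 to -0.55), and of 13 cDC2 genes none was higher and 1 lower, *Cd300a*, an inhibitory receptor gene, at 318 and 150 CPM (log2 -1.08). *Irf8* had a ratio of -0.21 (-0.34 to -0.08), *Clec10a* of 0.38 (-0.20 to 0.99) and *Mgl2* of 0.40 (-0.07 to 0.90). Of 18 pan-DC genes 2 were lower, *Bcl11a*, a transcription factor of lymphoid and DC development, at 286 and 122 CPM (log2 -1.23) and *Kmo*, an enzyme of tryptophan breakdown, at 296 and 139 CPM (log2 -1.09). All other cells of the libraries moved the same way, with -1.84 for *Itgae*, -1.09 for *Bcl11a* and -0.96 for *Kmo*.

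Most presentation genes were not called between diets, which also holds for all genes measured (5.71% called, 3.07% higher). Of 11 class II genes *H2-Eb2* (58.7 and 180 CPM, log2 1.59) and *Lgmn* (77.4 and 169 CPM, log2 1.11) were higher and none lower. Most *H2-Eb2* UMIs lay in the *Ccr7*+ cells, which were more numerous in the NASH library, and their part was not tested. *H2-Aa* was at 14081 and 16266 CPM (log2 0.21, 0.16 to 0.26), and none of 19 genes of MHC class I and cross-presentation was called. Of 18 interferon-stimulated genes 2 were higher and none lower (median -0.26) over all DCs, but in the *Clec9a*+ cells 1 of 13 was higher and 4 lower (median -0.86), and in the *Cd209a*+ cells 2 of 11 were higher and none lower. *Ifi27l2a* was at 152 CPM in 27 cells and 382 CPM in 48 cells (log2 1.32, 0.89 to 1.79) and was higher in both subsets. *Cxcl10* had 23 UMIs in 4 control cells and 81 UMIs in 7 NASH cells (log2 1.5), of which 65 were in 1 cell, and without the top cells its ratio was -0.027.

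Some genes were called within 1 subset. *Axl*, a receptor for apoptotic cells, was at 45.3 CPM in control and 457 CPM in NASH *Cd209a*+ cells (log2 3.18, 1.90 to 5.26) and at 103 and 65.7 CPM in the *Clec9a*+ cells (log2 -0.64, not called), where 20 of 21 control UMIs were in 1 cell and the ratio was 2.54 without the cell of each library with the most UMIs. Over all DCs *Axl* had 27 UMIs in 6 control cells, 20 of them in 1 cell, and 89 UMIs in 27 NASH cells (log2 1.40), and without the top cells the ratio was 3.08. In the *Clec9a*+ cells *Btla*, an inhibitory receptor gene, fell from 704 to 312 CPM (log2 -1.17). *Ccl5* was at 138 CPM in 3 control and 611 CPM in 2 NASH *Clec9a*+ cells (log2 2.13), with 26 of 28 control and 131 of 149 NASH UMIs in 1 cell each, so both values rest on single cells. The difference between subsets was not tested for these genes.

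The genes with the highest ratios over all DCs included *H2-M2*, a class I-like gene, with 1 UMI in 1 control cell and 40 UMIs in 5 NASH cells (log2 4.46), and the nuclear receptor genes *Nr4a3* (42.7 and 343 CPM, log2 2.97, but 2.05 without the *Ccr7*+ cells and 4.05 with DCs free of *Clec4f* and *Cd5l* UMIs) and *Nr4a2* (16 and 115 CPM, log2 2.74). *Gclc*, the rate-limiting enzyme of glutathione synthesis, was at 26.7 and 208 CPM (log2 2.90), with 42 of 96 NASH UMIs in 1 cell. At the other end, *Ighg2b*, *Ighg2c*, *Igha*, *Jchain* and *Igkc* were the lowest. *Igkc* fell from 1063 to 122 CPM (log2 -3.12) and had a ratio of -3.48 over all other cells, and the hemoglobin gene *Hbb-bs* rose by 2.55 against 2.21 over all other cells. Immunoglobulin is made by plasma cells and hemoglobin by red cells, and the part of free RNA in these calls was not tested. *Cd7* fell from 219 to 34.7 CPM (log2 -2.62) where all other cells were at -0.09.

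Against monocytes (137 control and 234 NASH cells), plasmacytoid DCs (53 and 31) and B cells (678 and 192), each picked by its own genes, 34 of 3866 genes (0.879%) were called in all 6 comparisons, 28 (0.724%) higher in the conventional DCs and 6 (0.155%) lower. Without the genes that picked those classes 33 of 3863 (0.854%) were called, 28 (0.725%) higher and 5 (0.129%) lower. *Cacnb3* was at 98.8 and 187 CPM in the DCs and at no more than 4.98 CPM in any of the 3 classes, a smallest log2 ratio of 3.75. It was found in only 3 of 64 control and 12 of 83 NASH DCs, with 30 of 37 control UMIs in 1 cell. Most of its UMIs lay in *Ccr7*+ cells, as given above. *Fscn1* and *Ccl22* followed with 2.44 and 2.86, although *Fscn1* was found in only 7 and 11 DCs and *Ccl22* in 6 and 18. Genes found in many DCs were *Pak1*, a kinase of the actin cytoskeleton, in 48 of 64 and 61 of 83 cells at 491 and 469 CPM (smallest ratio 1.56), and *Havcr2*, the gene of TIM-3, in 41 and 45 cells (1.47). *Cd34*, known from progenitors and endothelium, was at 206 and 310 CPM (1.42). Lower than in all 3 classes were *Ets1*, at 10.7 and 28.2 CPM, the actin-capping gene *Capg*, at 40.0 and 52.1 CPM, and *Dusp7*, *Ccdc88c* and *Ptprcap*. The other gene was *Ly6c2*, whose call is no result because it picked the monocytes.

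**Figure D4:**
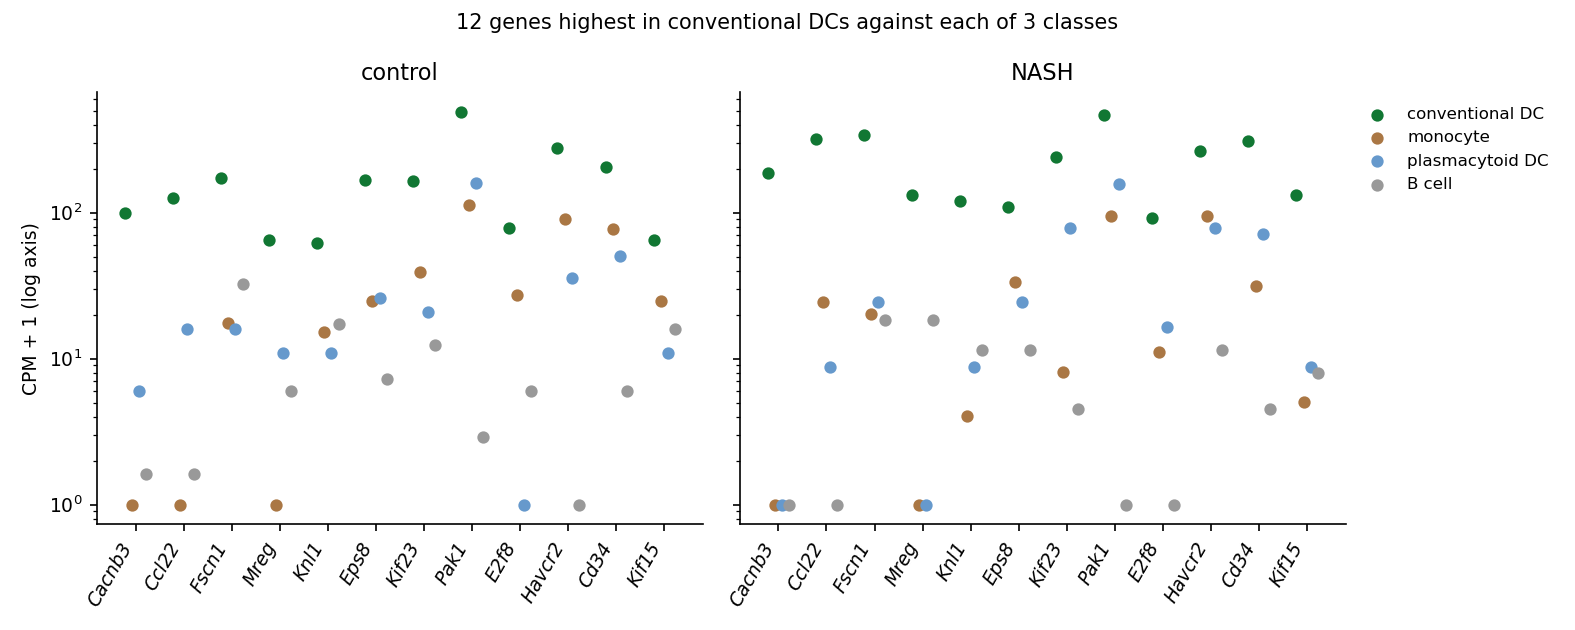
CPM + 1 (log axis) of the 12 genes with the highest smallest ratio between conventional DCs and 3 other classes, in the control (left) and NASH library (right). Each point is the sum over the cells of a class, and the green points of the conventional DCs lie highest for every gene in both panels, as the choice of the genes requires.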

How the data were processed

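Single-cell RNA was measured in 2 pooled libraries of liver NPCs. The authors made the deposited UMI counts with version 1.8 of BD's analysis pipeline for Rhapsody against GRCm38, without normalization. The deposited tables hold 16383 genes in alphabetical order up to *Rad54l2*, and later genes (*Siglech*, *Xcr1*, *Sirpa*, *Zbtb46*, the mitochondrial genes) were not analysed here, nor were 12 genes whose symbol is a date. The NASH table carries no gene names, so its columns were named by the control order. In the DCs the totals of both libraries had r = 0.963 across genes in this order and 0.391 and 0.390 when shifted by 1 column. Genes are not independent replicates. This check cannot exclude a shift over short stretches.

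Cells with at least 500 UMIs and 200 genes were kept, leaving 4209 of 4336 control and 3710 of 3893 NASH cells (11452972 and 9326723 UMIs in the tables). The mitochondrial filter could not be applied. DCs and the other classes were picked by UMI thresholds, and UMIs were summed per group and library into CPM. The genes that picked the DCs were left out of all counts of called genes but kept in the sums of the marker lists. Shares carry exact binomial (Clopper-Pearson), CPM exact Poisson and ratios exact binomial 95% intervals. A sum of 0 is bounded at 3 UMIs. Libraries per diet number 1, so there is no p-value.

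Named genes are the selection and marker genes, up to 4 per list with the largest ratios in the subset and in the diet contrast, the 10 highest and 10 lowest genes of either contrast and the top 12 of the class contrast. Some genes that this rule names are not reported here. Others were chosen after their values were seen, and so were the motifs. The members and lists were chosen with earlier results of these data known. Gene positions are from GENCODE M21, promoters from RefSeq. Python 3.11.15, numpy 2.4.6, scipy 1.17.1, scanpy 1.11.5 (Scrublet) and matplotlib 3.10.9 were used, and the ratios were tested on simulated data. Alternatives changed the DC rule, minimum UMIs, added count, scaling, doublets and subset rule. Leaving out the *Ccr7*+ cells, the cells with the most UMIs of a gene or the genes that picked other classes was chosen after seeing the data.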

Additional observations from a re-analysis of the deposited data

Results flagged for a closer look

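The ratio between diets went in opposite directions in the 2 DC subsets for 4 genes. *Cxcl9*, a chemokine induced by interferon gamma, was at -2.72 on the log2 scale in the *Clec9a*+ cells and 7.40 in the *Cd209a*+ cells, *Cxcl10* at -1.73 and 6.53, *Iigp1* at -3.24 and 4.79, and *Dennd5b* at 1.5 and -1.42. Fitted ratios against a sum of 0 depend on the 0.5 UMI added and are no bound. The difference between subsets was not tested for any of them. In the NASH *Cd209a*+ cells 1 cell held 120 of 125 *Cxcl9* UMIs (96.0%), 65 of 68 *Cxcl10* UMIs (95.6%) and 16 of 20 *Iigp1* UMIs (80.0%), and the control *Cd209a*+ cells had 0 UMIs of these 3 genes. In the *Clec9a*+ cells *Cxcl9* had 238 UMIs in 8 of 29 control cells and 43 UMIs in 9 of 35 NASH cells.

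The ratio of *Clec9a*+ to *Cd209a*+ cells likewise changed sign between libraries for 6 genes. It was 7.70 (control) and -2.42 (NASH) for *Cxcl9*, 4.35 and -3.90 for *Cxcl10*, and 4.58 and -3.44 for *Iigp1*. For *Arl4a* it was -2.05 and 2.08, for *Cdc73* 1.78 and -1.14, and for *Chd9* 1.36 and -1.24. These 3 genes were spread over more cells, with *Chd9* in 5 of 19 control and 19 of 29 NASH *Cd209a*+ cells. The difference between libraries was not tested.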

How the results depend on the processing

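Of 126 alternatives to the shares and counts of genes, 111 stayed within counting error or within 1.5 times, and of 3047 alternatives to single ratios 2912 did. The 3047 include those with a minimum of 10 or 50 UMIs per gene. That minimum leaves a single ratio unchanged by design, so these alternatives were bound to stay and say nothing on stability. With genes of at least 50 UMIs the calls were 173 higher and 202 lower between subsets, 65 and 35 between diets, and 15 and 1 between classes, since fewer genes were measured, and at 10 UMIs the class contrast had 12 lower. With DCs free of *Clec4f* and *Cd5l* UMIs their share was 0.808% of control and 1.11% of NASH cells, the *Clec9a*-only share of control DCs 32.4%, and the calls 157 and 235 between subsets and 13 and 2 between classes, with fewer cells. Thinned to 1000 UMIs the *Clec9a*-only share of the NASH cells was 18.5%.

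The ratio of *Cxcl10* between diets reversed to -0.30 without *Ccr7*+ cells and to -0.027 without the top cells, both chosen after seeing the data, and that of *Mki67* between subsets to -0.77 without *Clec4f* and *Cd5l* UMIs, and the cause was not tested. Depth limits genes under about 20 UMIs over both groups. No paired analysis was possible because each diet has 1 library and the labels carry no replicate number shared by animals.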

Other observations

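Genes of cytokine signalling that the text has not described differed between the subsets. The interleukin 17 receptor gene *Il17ra* was at 39.4 and 69.8 CPM in control and NASH *Clec9a*+ cells against 373 and 236 CPM in *Cd209a*+ cells (log2 -2.36, -3.11 to -1.69), and the interleukin 10 and 6 receptor genes *Il10ra* (-1.19) and *Il6ra* (-1.07) were lower too. *Il18* was higher (log2 1.37, 0.28 to 2.86), and the interferon gamma receptor gene *Ifngr1* was at 596 and 624 CPM against 419 and 525 CPM and was not called. The granulocyte-macrophage receptor gene *Csf2rb* had a ratio of -0.14 (-0.47 to 0.21). *Il10*, *Il12a* and *Il23a* had 0 UMIs in both subsets.

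The stem cell factor receptor gene *Kit* was at 177 and 193 CPM in the *Clec9a*+ and 45.3 and 30.4 CPM in the *Cd209a*+ cells (log2 2.27, 1.31 to 3.61). The costimulatory gene *Cd86* was also higher in the *Clec9a*+ cells (log2 2.38). *Klrd1*, an NK receptor gene, was found in 33 of 48 *Cd209a*+ and 23 of 64 *Clec9a*+ cells (log2 -2.33). The T and NK cell list, *Klrd1* included, summed to 622 and 753 CPM in the *Cd209a*+ and 113 and 201 CPM in the *Clec9a*+ cells. Of this list *Cd3g* and *Ncr1* were at 0 in both subsets. *Lck* was detected in the *Cd209a*+ cells of both libraries and *Il7r* in the *Clec9a*+ cells of both. *Dnase1l3*, a nuclease gene on the endothelial list, had 488 UMIs in 56 *Clec9a*+ cells and 59 UMIs in 21 *Cd209a*+ cells (log2 2.01).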
